A study of Mus musculus with 12 samples.

Results

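The promoters described here are the 523 of 21911 protein-coding transcription start sites (TSSs) that have a short stretch of B2 sequence within 1000 bp upstream. The rule that takes them uses sequence and annotation and no peak, though it was set with earlier results of these data known. The 26-nt B2 Northern probe of the study was matched to the mouse genome (GRCm38, the mm10 build) on either strand with at most 2 mismatches, and a TSS was taken when the midpoint of a match lay 0 to 1000 bp upstream of it. These promoters are called B2-proximal below. The 1124 control promoters have a match 5 to 6 kb upstream and none within 1 kb upstream. Both sets thus lie in B2-containing neighbourhoods and differ in whether a match lies within 1 kb upstream. Matches downstream of the TSS were not excluded from either set, nor were matches 1 to 5 kb upstream.

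Histone H3 acetylated at lysine 9 (H3K9ac) was mapped in adult liver by sequencing of immunoprecipitated chromatin (ChIP-seq). Peak lists were available for 2 livers of C57BL/6J (B6, the strain of the reference genome) and 2 of MSM/Ms (MSM, an inbred strain from Japanese wild mice). There was also 1 for each reciprocal F1 hybrid, labelled F1 BM and F1 MB. The first letter was assumed to be that of the maternal strain, and no comparison here uses this. The labels name no treatment. The 6 matching input libraries were not analysed here. The lists held 11619 to 22968 peaks, the fewest and the most being those of the B6 replicates, and since read counts were not used, a missing peak cannot be told from one too weak for the depth of its library. Of 8 hepatocyte marker genes, 7 had a peak within 1 kb of the TSS in all 6 lists (Hnf4a had none in any), while 0 of 4 Kupffer cell markers, 0 of 3 stellate cell markers and 0 of 6 genes of other tissues had a peak in any list. Of 3 endothelial markers, Stab2 and Kdr had a peak in 4 of the 6 lists each and Pecam1 in none. Each TSS was the 5′ end of the annotated gene, which need not be the start used in liver. In a bulk tissue such as this, a peak in few of the cells and a weak peak in all of them cannot be told apart.

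B2 elements are short interspersed elements (SINEs) of rodents, copied into the genome through RNA by enzymes of other retrotransposons. Their RNA is made by RNA polymerase III, and many copies carry a motif that the insulator protein CTCF can bind. H3K9ac marks active promoters, where it usually covers the nucleosomes on both sides of the start. The question addressed was whether acetylation at a promoter ends where a B2 copy begins. Because the matches were found in the B6 sequence, a copy may be missing from MSM chromosomes, and which of the 523 are missing there was not analysed. The study followed the copies upstream of Arcn1 and Nnt, and gives both as copies that differ between the strains.

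The copies that carry the comparison can be read directly. Each line below gives 50 bases on the strand of the B2 element, 5′ to 3′, from GRCm38, with the last 26 bases being the probe site. Capitals mark the core of the CTCF motif, searched as CCANNAGNNGGC on both strands. Arcn1 and Nnt are the loci the study followed, Slc10a1 and Bckdha had strong peaks that ended short of the match in every list, Cth had the one domain that passed it in every list, and Abcd4, Leo1 and Ggcx are examples of promoters whose edge differed between the strains.
Arcn1, chr9:44768055-44768104, minus strand: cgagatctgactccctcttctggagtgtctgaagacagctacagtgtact
Nnt, chr13:119409918-119409967, minus strand: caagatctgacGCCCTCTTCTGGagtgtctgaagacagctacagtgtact
Slc10a1, chr12:80969528-80969577, minus strand: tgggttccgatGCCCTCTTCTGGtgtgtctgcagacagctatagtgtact
Bckdha, chr7:25659703-25659752, minus strand: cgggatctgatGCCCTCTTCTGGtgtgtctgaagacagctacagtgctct
Cth, chr3:157925597-157925646, minus strand: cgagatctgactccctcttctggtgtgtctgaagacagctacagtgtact
Abcd4, chr12:84618272-84618321, minus strand: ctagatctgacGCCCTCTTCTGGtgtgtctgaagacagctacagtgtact
Leo1, chr9:75440837-75440886, minus strand: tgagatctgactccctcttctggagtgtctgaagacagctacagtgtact
Ggcx, chr6:72413497-72413546, minus strand: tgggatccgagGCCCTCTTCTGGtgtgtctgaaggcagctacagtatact

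The sites of Arcn1, Nnt, Cth, Abcd4 and Leo1 match the probe exactly. Counted from 1 at the 5′ end of the site on the B2 strand, Slc10a1 differs by A8C and C18T, Bckdha by T23C and A24T, and Ggcx by A11G and G22A. The core letters are absent from the lines of Arcn1, Cth and Leo1, which says only that these letters are not in this window. By the GENCODE M21 annotation the Arcn1 match lies in an intron of Ift46, the Bckdha match in an intron of Exosc5 and the Cth match in an exon of the antisense gene 1810013D15Rik, while the other 5 lie outside genes.

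Among all 523, the matches had a median distance of 679.5 bp from the TSS (range 46.5 to 996.5), and 503 promoters had a single match while 20 had more than 1, of which the nearest was used. Matches outside genes numbered 425, and 82 lay in introns, 13 in exons and 3 in untranslated regions. The element lay on the strand of the gene at 293 promoters (56.0%) and on the opposite strand at 230. Exact matches numbered 180 (34.4%), against 32.9% of all 57124 matches in the genome. The CTCF core lay within 40 bp of the match at 238 of the 523 (45.5%, 95% Wilson interval 41.3 to 49.8), close to the 44.5% of all matches, so copies near promoters carried these letters as often as copies elsewhere within that interval. The promoters themselves were poorer in CpG than the controls. The ratio of observed to expected CpG in the 1 kb around the TSS had a median of 0.558 against 0.675 in the controls and 0.552 over all promoters, and 45.7% of B2-proximal promoters against 59.96% of controls were at 0.6 or more. Another protein-coding TSS lay within 2 kb upstream of 4.78% of the B2-proximal promoters and 9.25% of the controls.

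A B2 copy nearby did not mean a promoter without acetylation. A peak within 1 kb of the TSS was present at 139 of the 523 promoters in all 6 lists (26.6%), at 235 in none (44.9%) and at 149 in 1 to 5 lists. The share with a peak was 53.2% in B6 replicate 1, 31.9% in B6 replicate 2, 43.2% in MSM replicate 1, 44.6% in MSM replicate 2, 42.6% in F1 BM and 35.8% for F1 MB. At the controls it was 60.8%, 39.3%, 49.3%, 50.5%, 48.4% and 44.6% in the same order, higher in every liver. The difference, B2-proximal minus control, was -6.94 ± 1.20 percentage points (SD, n = 6), and the 95% Newcombe interval within each liver lay below 0, the nearest bound being -0.586 in F1 BM. The two-sided exact sign-flip permutation test over the 6 livers gave p = 0.0313, the smallest it can give. This p covers the spread between livers only, since the same promoters were compared in each. The direction differed between CpG classes. Among promoters with a CpG ratio of 0.6 or more the B2-proximal ones had a peak more often than the controls, by 2.77 ± 2.27 points. Among those below 0.6 they had one less often (-3.65 ± 1.47 points). Each had the same sign in 6 of 6 livers (exact sign-flip permutation p = 0.0313 for each). In the CpG-rich class the shares were nearly equal in B6 replicate 2 (53.14% and 52.97%) and F1 MB (62.34% and 62.31%), and differed more in the other livers. Against all 21388 promoters with no match within 1 kb upstream the difference was 6.91 points.

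**Figure D1:**
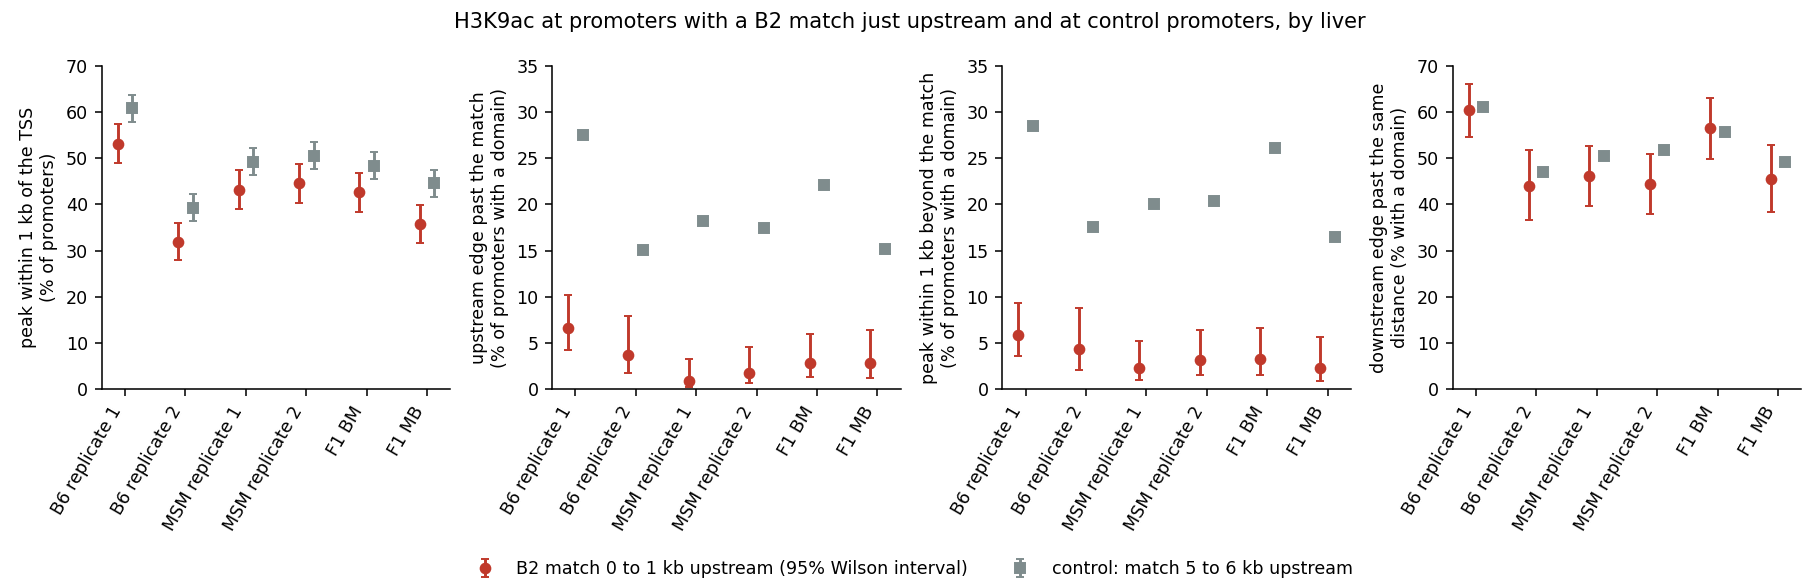
Share of promoters (percent, y axis) in each of the 6 livers (x axis), with B2-proximal promoters as red circles with 95% Wilson intervals and controls as grey squares. From left to right the panels show a peak within 1 kb of the TSS, an upstream domain edge past the match, a peak within 1 kb beyond the match and a downstream edge past the same distance. In the panels on the domain edge past the match and on the peak beyond it, the B2-proximal values lie between 0.922% and 6.64%, and the control values between 15.1% and 28.4%.

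Where a B2-proximal promoter was acetylated, the acetylated domain seldom passed the B2 copy. Peaks at most 500 bp apart were joined into domains. For each TSS the nearest domain, if within 500 bp, was used, and its upstream reach was the distance from the TSS to its upstream edge, negative where the edge lay downstream of the TSS. In B6 replicate 1, 18 of 271 domains (6.64%) reached past the match. The counts were 6 of 159 (3.77%) in B6 replicate 2, 2 of 217 (0.922%) in MSM replicate 1 and 4 of 221 (1.81%) in MSM replicate 2. The hybrids gave 6 of 214 (2.80%, F1 BM) and 5 of 176 (2.84%, F1 MB). Control domains reached past the same distances far more often, in 27.5%, 15.1%, 18.2%, 17.5%, 22.1% and 15.2% in the same order of livers. The mean was 3.13% ± 1.98 against 19.3% ± 4.78 (SD, n = 6 livers), a difference of -16.1 ± 3.78 points, lower in 6 of 6 livers (two-sided exact sign-flip permutation p = 0.0313, the smallest possible). Unlike the presence of a peak, this difference was as large among CpG-rich promoters (-16.5 points) and was seen among CpG-poor ones (-12.48 points). With peaks taken singly instead of joined it was -7.96 points. Reads of 50 bp may be hard to place in a repeat, which can thin a peak over the copy, and the part of this in the result was not tested.

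Peaks beyond the copy were also rare. Within the 1 kb beyond the match, 16 of the 271 promoters with a domain had a peak in B6 replicate 1 (5.90%), 7 of 159 in B6 replicate 2 (4.40%), 5 of 217 in MSM replicate 1 (2.30%), 7 of 221 in MSM replicate 2 (3.17%), 7 of 214 in F1 BM (3.27%) and 4 of 176 for F1 MB (2.27%). The controls had one in the same windows at 16.5% to 28.4% of promoters. The difference was -17.9 ± 4.06 points (SD, n = 6; exact sign-flip permutation p = 0.0313, the smallest possible). In a window from 200 to 1200 bp beyond the match, which leaves out what remains of the copy and was chosen after seeing the data, the difference was -11.6 points. No promoter had a peak beyond the match in all 6 lists with the match itself bare in all 6.

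The fall in acetylation was gradual on the TSS side of the match. At 600 bp on the TSS side of the match, 38.3% ± 5.25 of B2-proximal promoters with a domain were under a peak, against 41.5% ± 6.60 of controls (mean ± SD over the 6 livers). At 300 bp on that side the values were 18.03% ± 5.14 and 28.4% ± 6.79, and at 100 bp 6.03% ± 3.22 and 22.2% ± 5.57. At 100 bp beyond the match they were 1.21% ± 1.11 and 15.3% ± 3.95. The gap between B2-proximal promoters and controls was -3.23 points at 600 bp on the TSS side. It was widest near the match (-16.5 points at 50 bp on the TSS side). Beyond the match the gap in points narrowed, to -5.14 at 500 bp, -1.85 at 1000 bp and -0.823 at 1500 bp. It narrowed as the control share fell, while the B2-proximal share stayed low. The B2-proximal and control shares were 0.123% and 4.34% at 600 bp beyond the match. They were 0.691% and 2.54% at 1000 bp, and 1.08% and 1.9% at 1500 bp.

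**Figure D2:**
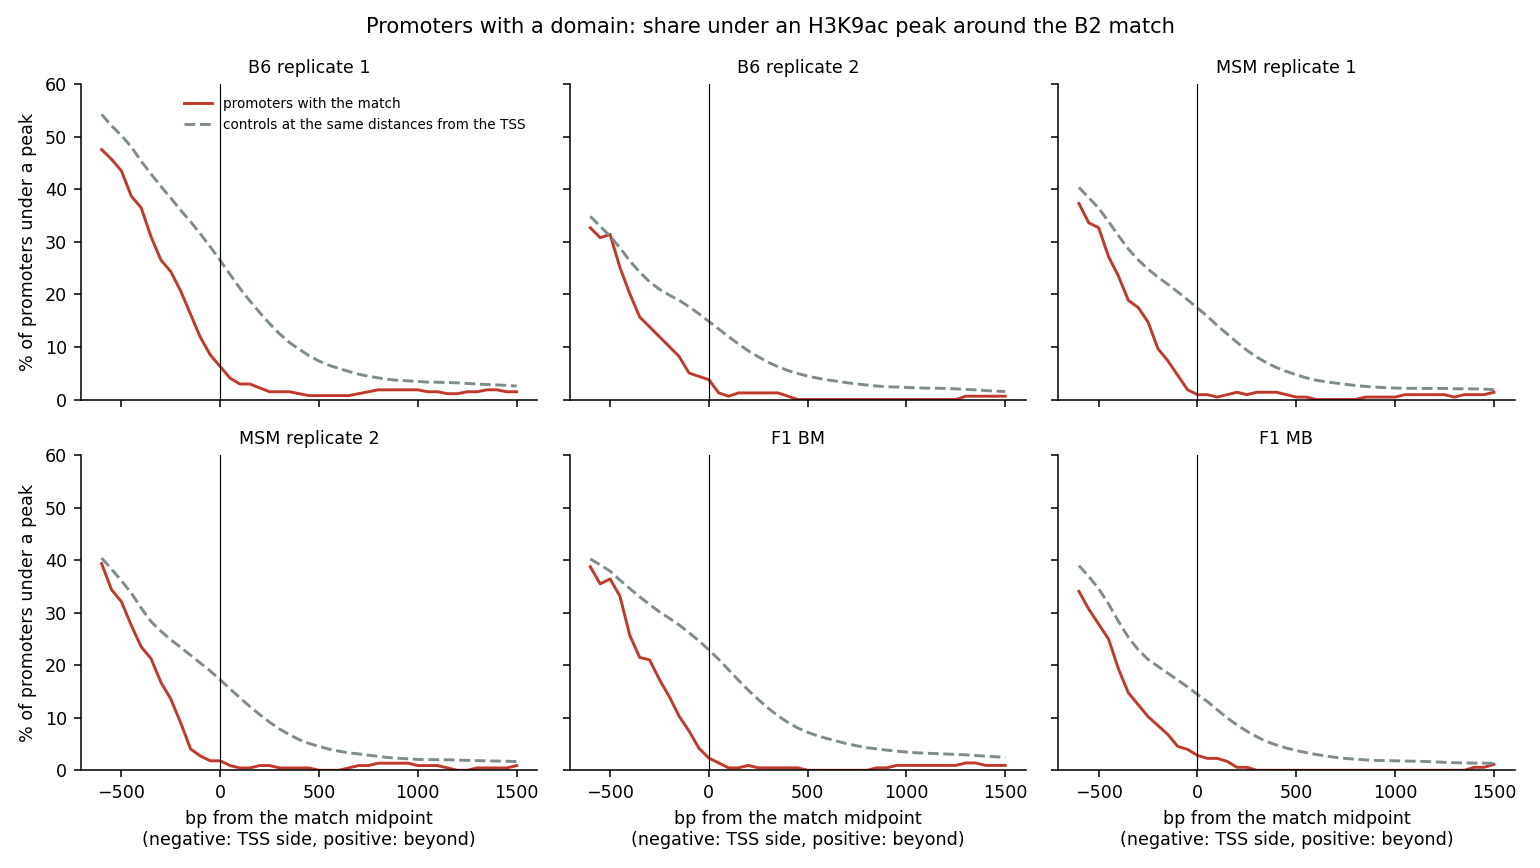
Share of promoters with a domain that lie under a peak (percent, y axis) by position relative to the match midpoint (bp, x axis, negative on the TSS side), 1 panel per liver. Red lines are B2-proximal promoters and dashed grey lines are controls averaged over the same distances from the TSS. At 100 bp beyond the match the red lines lie between 0.452% and 2.95% and the grey lines between 11.5% and 21.2%.

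Domains that came close to the match went on past it less often than those of the controls. A domain edge lay a median of 564.5 to 715.5 bp short of the match in the 6 livers, so most domains ended well before the copy, and few came near enough to meet it. Domains that came to within 200 bp of the match or passed it numbered 56 in B6 replicate 1, 15 in B6 replicate 2, 21 in MSM replicate 1, 19 in MSM replicate 2, 27 in F1 BM and 14 with F1 MB. Of these, 18, 6, 2, 4, 6 and 5 went on past the match. Control domains that came as far went on past the same point in 63.1% to 68.3%. The means were 26.8% ± 11.3 and 65.5% ± 2.30, and the B2-proximal share was lower in 6 of 6 livers (SD, n = 6; exact sign-flip permutation p = 0.0313).

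On the other side of the TSS the share of domains past the distance of the match differed less. The median reach differed less there in the mean over the 6 livers, but not in most single livers. The downstream edge passed the distance of the match in 49.5% ± 7.15 of B2-proximal promoters and 52.5% ± 5.06 of controls, a difference of -3.02 ± 2.94 points that was negative in 5 of 6 livers (exact sign-flip permutation p = 0.0938). With exact matches alone it was -7.54 points and passed the test (exact p = 0.0313). Upstream, the median domain of B6 replicate 1 reached 22 bp, against 376.5 bp in its controls, and the medians were -55 to -26 bp in the other 5 livers against -33.5 to 52.5 bp. The difference of the medians was -98.1 ± 127 bp (SD, n = 6), negative in 6 of 6 livers (exact sign-flip permutation p = 0.0313), and its size depended on the liver, the joining of peaks and the control: it was -46.8 bp without B6 replicate 1, -9.92 bp with peaks taken singly and -443 bp against promoters with a match within 1 kb downstream. Downstream, the difference of the median reach was -44.3 ± 28.8 bp, negative in 5 of 6 livers (exact sign-flip permutation p = 0.0625), and it was larger than the upstream one in B6 replicate 2, both MSM replicates and F1 MB. The mirror case was read from the 172 promoters with a match within 1 kb downstream and none within 1 kb upstream. Of these, 31 to 51 had a domain in a liver, and 7 to 11 of those had a downstream edge past the match. Their downstream edge passed the match in 19.7% ± 2.52, against 47.1% ± 4.67 of controls at the same distances, while their upstream edge passed that distance in 30.9% ± 7.98 against 16.5% ± 3.97 (SD, n = 6 livers; exact sign-flip permutation p = 0.0313 for each). By the share of edges past the match, the shorter side relative to the controls was that of the match in both sets. By the median reach of the B2-proximal promoters this held in the mean over the 6 livers, in B6 replicate 1 and in F1 BM. It did not hold in the other livers, and without B6 replicate 1 the mean differences were -46.8 bp upstream and -46.4 bp downstream.

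**Figure D3:**
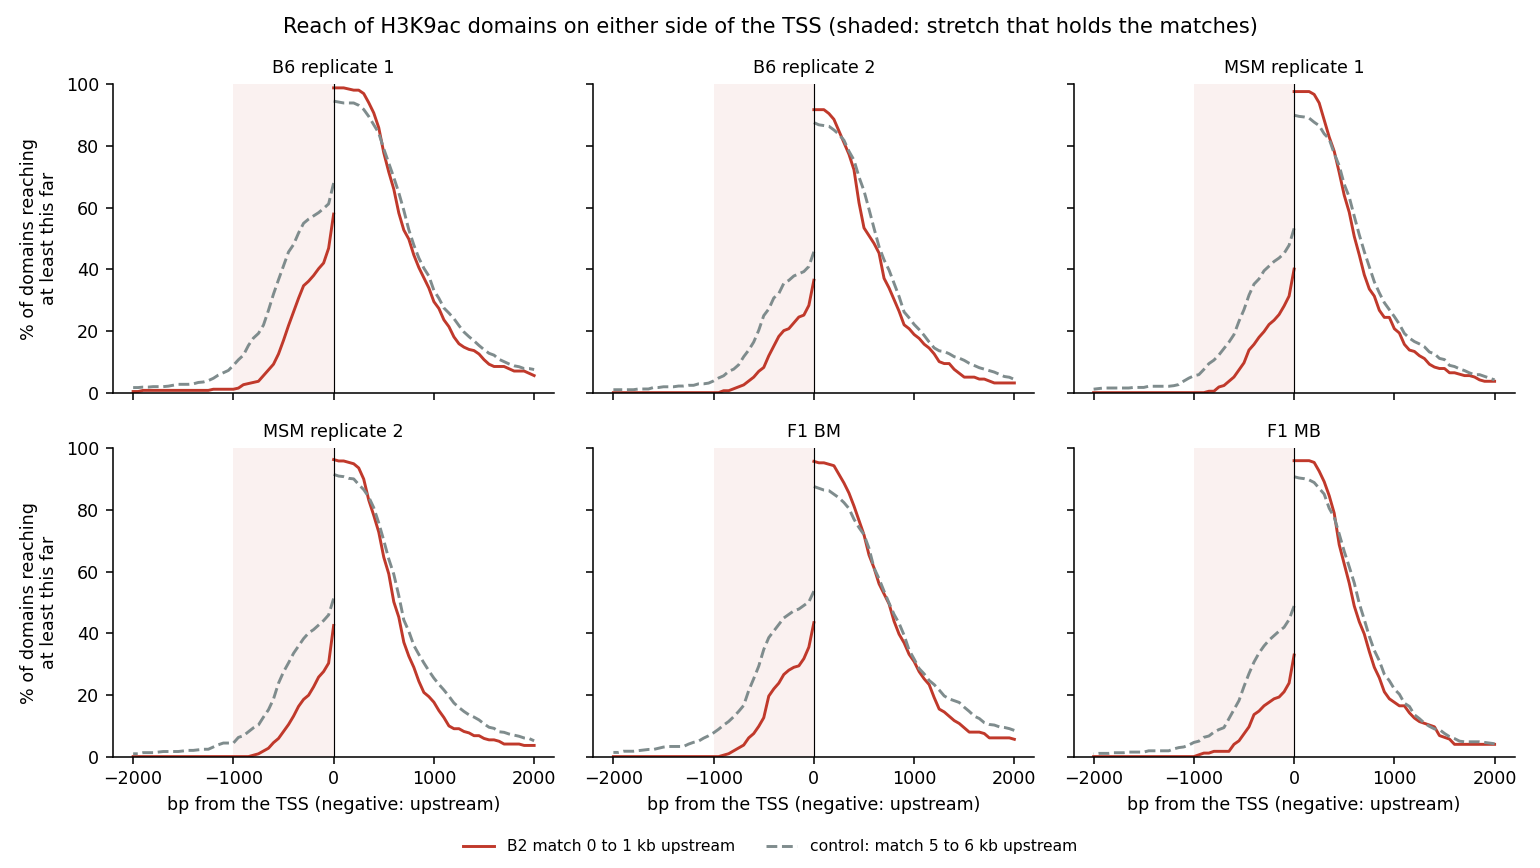
Share of domains that reach at least a given distance (percent, y axis) upstream (negative) and downstream (positive) of the TSS (bp, x axis), 1 panel per liver, for B2-proximal promoters (red) and controls (dashed grey). The red curves lie below the grey ones in the shaded 1 kb upstream of the TSS, which holds the matches, and downstream the gap differs between panels, being 53.5% against 65.5% at 500 bp in B6 replicate 2 and 71.96% against 72.01% in F1 BM.

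The few promoters whose domain passed the match can be named. Of the 523, 19 did so in at least 1 list, and 10 of these did so in B6 replicate 1 alone, the list with the most peaks. The 9 others were Arcn1, Cth, Gm49336, Nupl1, Ppp6r2, Rtf2, Srp19, Tm9sf1 and Zfp384, chosen for naming after their values were seen. Of the 130 promoters with a domain in all 6 lists, 114 had an edge short of the match in every one. The controls were not counted this way. Within single livers most control domains also ended short of the same distances, with 15.1% to 27.5% past them.

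Cth, which encodes cystathionine gamma-lyase, the enzyme that makes cysteine from cystathionine, was the one promoter past its match in all 6 lists. Its match lies 532.5 bp upstream. Its domain reached 939 and 910 bp upstream in B6, 762 and 793 bp in MSM, 779 bp in F1 BM and 822 bp for F1 MB, so that every edge lay beyond the copy. The peak beyond the match had a fold enrichment of 8.43 and 3.46 in B6, 3.76 and 6.16 in MSM, 5.21 in F1 BM and 4.91 in F1 MB.

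Arcn1, which encodes the delta subunit of the COPI coat of Golgi vesicles, has an exact match 222.5 bp upstream in the B6 sequence and a second protein-coding TSS within 2 kb upstream. The study gives this copy as absent from MSM, so for MSM the position of the match is one on the B6 sequence, not that of a copy in the MSM genome. The upstream reach was 155 and 10 bp in the B6 replicates, 799 and 704 bp in the MSM replicates, 680 bp in F1 BM and 16 bp in F1 MB. Both B6 edges and that of F1 MB stopped short of the match, and both MSM edges and that of F1 BM lay past it. From allelic reads of the reciprocal hybrids, the study reports the MSM allele as hyperacetylated beyond this copy. Peak lists do not separate the alleles, and that of F1 MB held 13235 peaks against 20173 in F1 BM. Whether the crosses differ here was not tested. The fold enrichment of the highest peak at the TSS was 11.4 and 6.23 in B6, 9.31 and 4.65 in MSM, 4.95 in F1 BM and 7.42 for F1 MB, and the strains overlapped. In MSM the peak beyond the match had a fold of 7.40 and 3.73, in F1 BM of 2.43, and no B6 list nor that of F1 MB had one. Arcn1 was the single promoter of the 523 past its match in both MSM and neither B6 replicate, a pattern that was known when the promoters were chosen. The opposite pattern, past the match in both B6 and neither MSM replicate, was found at 3 promoters, Tm9sf1, Nupl1 and Gm49336, of which Nupl1 and Gm49336 share a match. Neither pattern was counted among the controls, so neither count can be set against a background. With peaks taken singly the upstream edge of the Arcn1 peak at the TSS was 74 bp less far in MSM than in B6 (MSM minus B6, -74 bp), so the difference lies in acetylation that is split from the peak at the start. As joined it was 669 bp, and 326 bp with lists cut to an equal number of peaks or to equal covered length.

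Nnt, which encodes the mitochondrial nicotinamide nucleotide transhydrogenase, has an exact match 933.5 bp upstream in the B6 sequence. The study gives the MSM allele as free of this copy, so for MSM the match is only a position on the B6 sequence. It also reports a size difference in the H3K9ac peak here, from ChIP-seq tracks and not from joined peak edges. Its upstream reach was 946 and 380 bp in B6, 481 and 472 bp in MSM, 861 bp in F1 BM and 478 bp in F1 MB. The B6 replicates lay on either side of both MSM values, so the strains did not separate by this measure. MSM minus B6 was -186.5 bp as joined here, 257 bp with peaks within 1000 bp joined and 96.5 bp without B6 replicate 1, so its direction depended on the joining and on that liver. The edge passed the match in B6 replicate 1, by less than the length of the probe site, and a peak beyond the match was listed in MSM replicate 1 with a fold of 5.68.

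Strongly acetylated promoters were among those that stopped short. Slc10a1, the bile acid uptake transporter of hepatocytes, had the highest mean fold enrichment at the TSS of the 114, 15.1 ± 3.94 (SD, n = 6 livers), with a match 835.5 bp upstream. Its upstream reach was 309 and 378 bp in B6, 151 and 92 bp in MSM, 271 bp in F1 BM and 419 bp in F1 MB, so both B6 edges lay further out than both MSM edges. Bckdha, a subunit of the branched-chain keto acid dehydrogenase, had a fold of 12.46 ± 2.34 and a match 734.5 bp upstream. Its reach was 674 and -8 bp in B6, 601 and 574 bp in MSM, 595 bp in F1 BM and 633 bp for F1 MB, and 5 of the 6 edges ended within 200 bp of the match. Aldh2, which oxidises acetaldehyde, had a fold of 11.7 ± 3.75 and an upstream reach of -244 to 679 bp for a match at 931.5 bp. Arhgef37 had a fold of 11.4 ± 4.21 and reached -108 to 342 bp for a match at 943.5 bp. C1rl, a complement-related serine protease, had a fold of 11.02 ± 2.27, and its edges fell into those at 582 to 691 bp and those at -307 and -274 bp, all short of the match at 807.5 bp.

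Promoters with the nearest copies had a peak about as often as the rest. A peak within 1 kb of the TSS was present at 42.1% ± 7.44 of the 19 promoters with a match 0 to 250 bp upstream, at 39.4% ± 6.89 of the 116 at 250 to 500 bp and at 42.6% ± 7.60 of the 388 at 500 to 1000 bp (mean ± SD over the 6 livers). The 3 promoters with the nearest match, Gm16503 (46.5 bp), Gm10073 (65.5 bp) and Gm6665 (67.5 bp), had no peak in any list, apart from Gm10073 in B6 replicate 1, where a domain reached 1206 bp upstream. Exact matches next to promoters with no peak in any list were found nearest at Gm16503, at Arhgef2 (100.5 bp) and at Gm9803 (145.5 bp).

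**Figure D4:**
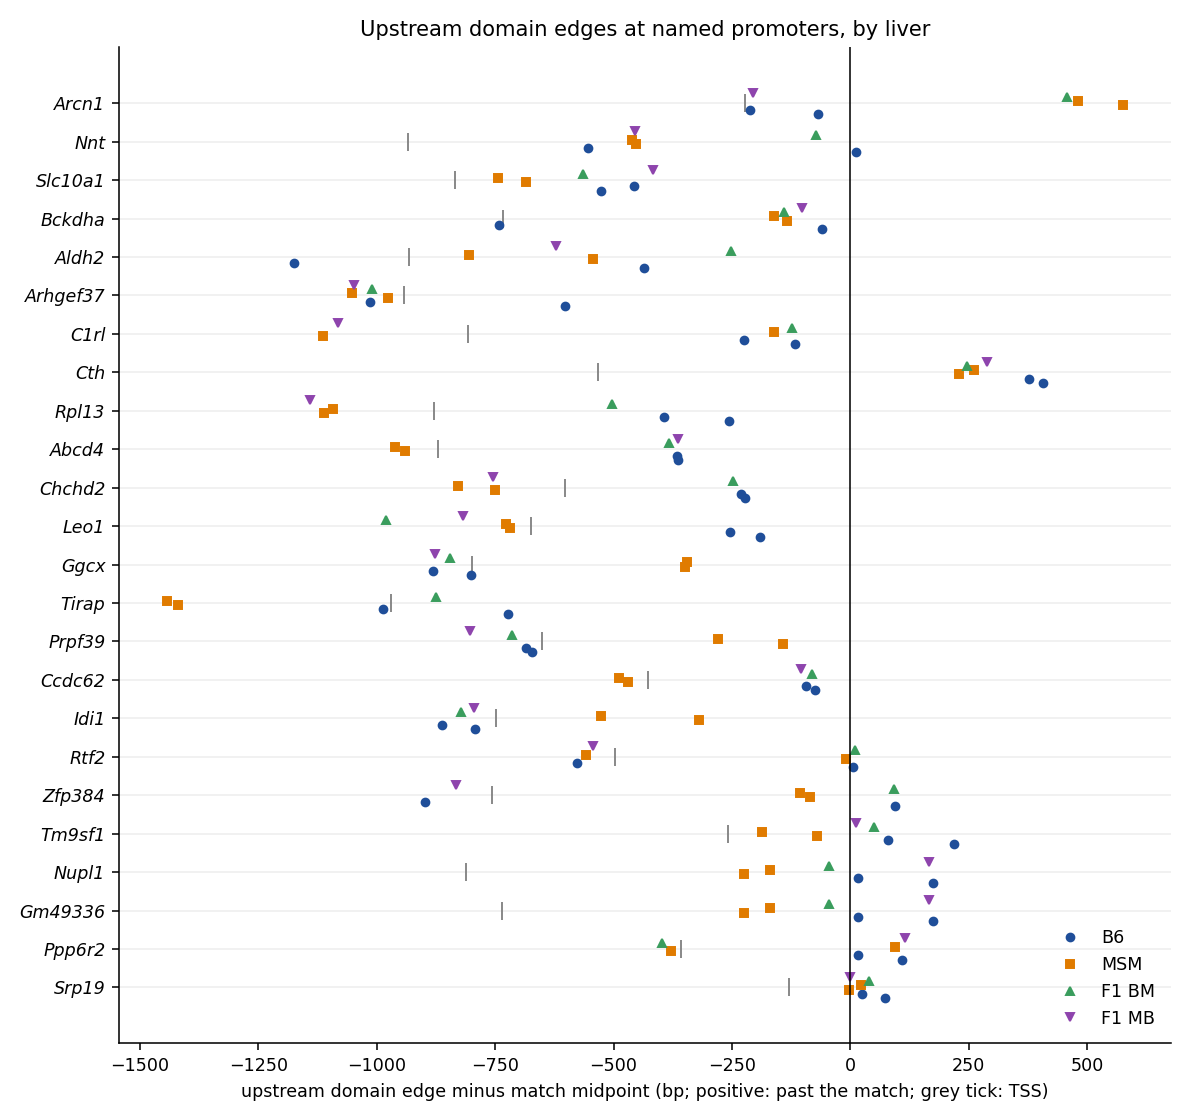
Upstream domain edge minus match midpoint (bp, x axis) for named promoters (rows) in B6 (blue circles), MSM (orange squares), F1 BM (green triangles pointing up) and F1 MB (purple, pointing down), with the match at 0 and a grey tick at the TSS. All 6 edges of Cth lie to the right of 0, those of Arcn1 are split, and all edges of Slc10a1, Bckdha, Aldh2, Arhgef37 and C1rl lie to the left.

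The strains were compared promoter by promoter. A promoter counted as further out in B6 or in MSM when both livers of that strain reached at least 200 bp beyond both livers of the other strain. Of the 141 B2-proximal promoters with a domain in all 4 parental lists, 4 were called further in MSM (2.84%, 95% Wilson interval 1.11 to 7.07), against 5 of 374 controls (1.34%, interval 0.572 to 3.09) and 0.829% of all 5186 promoters with such domains. In the opposite direction 8 were called further in B6 (5.67%, interval 2.90 to 10.8), against 4.28% of controls and 4.8% of all. The second share is near the background, and the first overlaps the controls in its interval and rests on 4 promoters, of which Arcn1 was known beforehand. The counts depended on single livers and on list length. Without B6 replicate 1 the count in MSM was 22, without B6 replicate 2 the count in B6 was 39, and with lists of equal length in peaks they were 0 and 7.

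The other promoters further upstream in MSM were Ggcx, the gamma-glutamyl carboxylase of vitamin K-dependent proteins, Prpf39, a splicing factor, and Idi1, an isomerase of cholesterol synthesis. Ggcx reached -2 and -83 bp in B6, 449 and 454 bp in MSM, -46 bp in F1 BM and -79 bp in F1 MB. Prpf39 reached -21 and -33 bp in B6 and 509 and 373 bp in MSM, and Idi1 -45 and -114 bp in B6 and 428 and 221 bp in MSM. At both of them, and at Ggcx, the F1 edges lay downstream of the TSS as in B6, and no MSM edge came past the match. With peaks taken singly MSM minus B6 turned to -13.5 bp for Ggcx and -10 bp for Prpf39, and for Ggcx it was also -13.5 bp with lists cut to an equal number of peaks or to equal covered length.

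Rpl13, a protein of the large ribosomal subunit, had the widest gap in favour of B6, 700 bp. It reached 623 and 485 bp in B6, -232 and -215 bp in MSM, 376 bp in F1 BM and -263 bp in F1 MB. Abcd4, a transporter of lysosomal cobalamin export, reached 508 and 506 bp in B6, -68 and -89 bp in MSM, 489 bp in F1 BM and 508 bp in F1 MB, so both hybrids lay at the B6 extent. With peaks taken singly its MSM minus B6 turned from -585.5 to 28 bp. Chchd2, a mitochondrial protein, reached 380 and 371 bp in B6 and -147 and -227 bp in MSM, with F1 BM at 355 bp and F1 MB at -152 bp. Leo1, a subunit of the PAF1 elongation complex, reached 484 and 420 bp in B6 and -52 to -45 bp in MSM, with both hybrids downstream of the TSS. Ccdc62 reached 353 and 334 bp in B6, -43 and -60 bp in MSM and 346 bp in F1 BM, with F1 MB at 323 bp. Tirap, an adaptor of Toll-like receptors, had a gap of 434 bp, and Zfp512b and Dync1i2, a dynein subunit, had the narrowest gaps of the called promoters, 228 and 206 bp. Next below the threshold lay Gm49336 and Nupl1, a nucleoporin, which share a match, at 186 bp further in B6. In the MSM direction the next promoter was Snrpg, a core spliceosome protein, at 40 bp, far from the threshold. None of the 8 further in B6 had an edge past its match in any list.

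The share of domains past the match was lower in both MSM livers than in both B6 livers. The B6 livers averaged 5.21% ± 2.03 (SD, n = 2) and the MSM livers 1.37% ± 0.628 (SD, n = 2). MSM minus B6 was -3.84 points, against a pooled SD of 1.501 (exact permutation over the 4 livers, two-sided, p = 0.333, the lowest this test can give with 2 livers a strain). It was -2.41 points without B6 replicate 1, -1.65 at a CpG ratio below 0.6 and -1.31 with exact matches alone (exact permutation p = 1). Control domains passed the same distances in 27.5% and 15.1% in the B6 replicates and in 18.2% and 17.5% in the MSM replicates. Both MSM control values thus lay between the B6 ones. Whether the strain difference exceeded that of the controls was not tested. Presence or absence of a peak at the TSS seldom followed strain. A peak in both B6 and neither MSM replicate was found at 8 of the 523 (1.53%), against 1.25% of controls and 0.844% of all promoters, and the opposite at 1 (0.191%), against 0.712% and 0.292%.

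The share of copies passed fell with distance from the TSS, and so did that of the controls. Domains passed the match in 23.9% ± 14.3 of the promoters with a match 0 to 250 bp upstream, in 5.68% ± 5.80 of those at 250 to 500 bp and in 1.68% ± 0.992 of those at 500 to 1000 bp (mean ± SD over the 6 livers). The controls passed the same distances in 44.3%, 36.9% and 13.4%, so the B2-proximal share was the lower one in each class, with 4 to 8 domains a liver in the nearest. Exact copies were passed in 3.08% ± 1.72 and those with 2 mismatches in 3.15% ± 2.43, a difference of -0.0762 ± 1.95 points (exact sign-flip permutation p = 0.906). Copies with the CTCF core were passed in 2.002% ± 2.43 and those without it in 3.92% ± 1.79, a difference of -1.92 ± 1.40 points (p = 0.0625 by the same exact test). Copies on the strand of the gene were passed in 3.91% ± 2.10 and those on the opposite strand in 2.05% ± 2.04, a difference of 1.86 ± 1.21 points, positive in 6 of 6 livers (exact p = 0.0313). A peak at the TSS was present at 38.2% of promoters whose copy held the core and at 44.9% of the rest, a difference of -6.68 ± 1.62 points, negative in 6 of 6 livers (exact p = 0.0313). Of the 12 differences of this kind that were computed none passed an adjusted threshold, the lowest Benjamini-Hochberg adjusted p being 0.0750. An unadjusted exact p of 0.0313, the smallest possible, was reached by 5. Among these 5 was the CpG difference in peak presence, 50.0 ± 6.64 points (ratio of at least 0.6 minus below). Since the exact test cannot go lower, the adjusted value depends on how many of the 12 reach that floor. Not passing it therefore says little about any single feature.

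**Figure D5:**
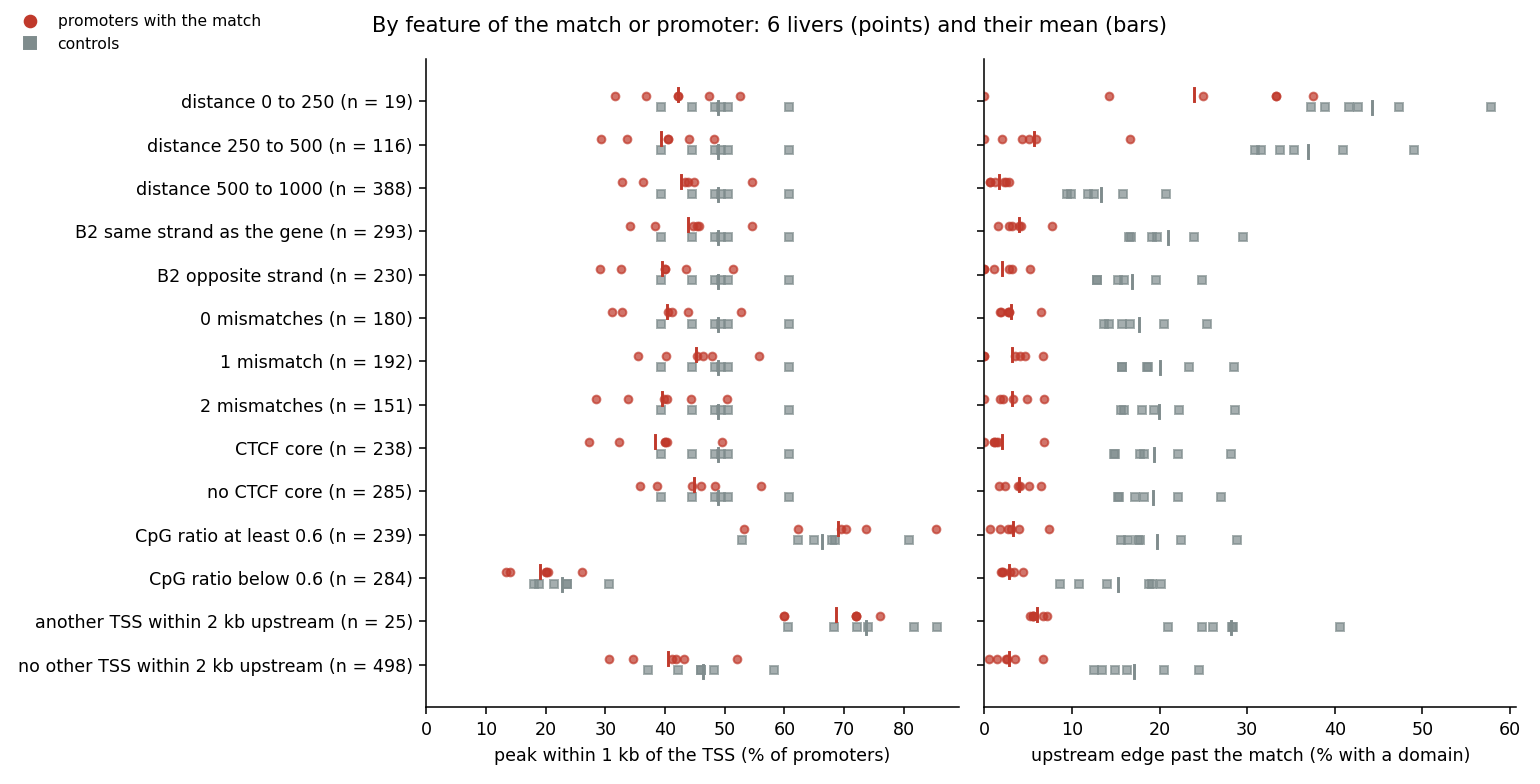
Share of promoters with a peak within 1 kb of the TSS (left, percent) and share of domains past the match (right, percent) for classes of B2-proximal promoters (rows, number of promoters in brackets). Red circles are the 6 livers and grey squares the controls in the same livers, with bars at the means. On the right the red means are below the grey means in every row, and on the left CpG content separates the rows most.

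The genes behind these promoters covered many roles. Over all 523, 288 (55.1%) had a peak in at least 1 list and 19 (3.63%) an edge past the match in any, so in lists of about 10 genes few or none past the match is near that share. Olfactory receptors, the odorant receptors of the nose, had 17 B2-proximal members, and 0 of them had a peak in any list, near the 0.176% of all 1134 olfactory receptors. Of 16 zinc finger genes with the symbol Zfp, 10 had a peak in at least 1 list (70.3% of all 397 such genes did), and Zfp384 had a domain past its match. All 7 genes of the mitochondrial list (ribosome, respiratory chain and ATP synthase, among them Atp5j2, Cox17 and Ndufa3) and 7 of 8 cytosolic ribosomal protein genes had a peak in at least 1 list, and none of either had an edge past the match. Over all genes of these lists, with or without a B2 match, 91.3% of the mitochondrial and 82.2% of the cytosolic ribosomal ones had a peak in at least 1 list. The 11 genes of vesicle transport had a peak in at least 1 list in 9 cases, among them Copz1, another COPI subunit, and in this list Arcn1 alone passed its match. Of all 191 genes of that list 83.2% had a peak in at least 1 list. All 9 genes of transcription and RNA processing and 5 of 9 ubiquitin and proteasome genes had a peak in at least 1 list, again with no edge past the match, against 89.9% and 73.8% of all genes of these lists with a peak. Of 10 solute carriers 2 had a peak in any list, Slc10a1 being one of them, against 48.3% of all 385. The cytochrome P450 gene Cyp27b1 had none, against 51.4% of all 107 P450 genes with a peak, and the vomeronasal receptors Vmn1r17 and Vmn1r64 had none, against 0.303% of all 330.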

How the data were processed

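The study took chromatin from adult liver fixed with formaldehyde, precipitated it with an H3K9ac antibody and sequenced 50-bp read pairs. Its methods name Trim Galore and Bowtie 2 on mm10, while the submitters' processing notes name Trim Galore, HISAT2, SAMtools and MACS2, so the aligner is uncertain. The threshold and the use of input were not given in the sources used here, and the lowest −log10 q in the deposited lists, 1.30 to 1.35, lay at or just above the value of q = 0.05. The deposited narrowPeak lists, 1 per liver and not pooled, hold a fold enrichment (a ratio at the summit, from the authors' peak caller), a −log10 p-value and a −log10 q-value as the authors wrote them, and a deposited score that was not used. Read depth per library was not used here, and intervals cover counting of promoters only.

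Everything else was computed with Python 3.11.15, numpy 2.4.6, scipy 1.17.1 and matplotlib 3.10.9. Of the 6 H3K9ac livers, groups and replicate numbers came from the sample titles. TSSs came from GENCODE M21, 1 per protein-coding symbol, taken as the 5′ end of the gene record and not of a transcript chosen for liver. Peak presence needed an overlap of at least 1 bp. Control shares are means over the match distances of the B2-proximal promoters with a domain. Of the 523 promoters, 16 share 8 matches. Differences were tested by exact sign-flip permutation over livers, and strain values by exact permutation over the parental livers. The functions were tested on simulated data. Named genes are Arcn1 and Nnt, up to 5 promoters short of and past the match in all lists by fold and reach, up to 10 called in one strain, and the 3 nearest matches with and without a condition on peaks. The promoters, gene lists and comparisons were chosen with earlier results of these data known.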

Additional observations from a re-analysis of the deposited data

How the results depend on the processing

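The shares of domains past the match and of peaks beyond it stayed lower at B2-proximal promoters under all 13 other settings run for each. The differences were -28.7 to -7.96 and -30.4 to -11.6 points. Both were run with CpG classes, peak thresholds, equal lists, mismatches, shared matches, neighbouring TSSs and 3 other controls. Other joining was run for domains past the match only, and other windows for peaks beyond it only. Peak presence, -6.94 points as reported, reversed at a CpG ratio of at least 0.6 (2.77 points). It also reversed against all promoters without a match within 1 kb upstream (6.91) and against promoters with a downstream match (17.3). It kept its direction with exact matches (-11.2) and with the window only downstream of the TSS (-4.30). The median upstream reach did not pass the threshold at a CpG ratio below 0.6 (-19.8 bp, exact permutation p = 0.438).
Leaving out each liver in turn gave -7.18 to -6.56 points for presence, -113 to -46.8 bp for median upstream reach (-46.8 bp without B6 replicate 1), -17.1 to -15.2 points for edges past the match and -18.9 to -16.97 points for peaks beyond it. With 5 livers the smallest possible p is 0.0625, so no such value could pass 0.05.
The downstream comparisons were added after seeing the data. The difference of median downstream reach passed the threshold without joining (-36.2 bp), with joining over 1000 bp (-65.1), at a −log10 q of at least 5 (-55 bp), with equal numbers of peaks (-53.7), with exact matches (-65.4) and without promoters near another TSS (-55.3), and reversed against promoters with a downstream match (224 bp). The downstream share passed it with joining over 1000 bp (-5.04 points), exact matches (-7.54), no TSS nearby (-4.62) and a CpG ratio below 0.6 (-6.32), and reversed with equal covered length (1.66) and against promoters with a downstream match (18.9).
Counts of promoters further upstream in one strain depended on the setting. In MSM there were 1 without joining, 2 at the stricter q, 0 with equal numbers of peaks, 2 with equal covered length, 1 with exact matches and 1 at a CpG ratio below 0.6, and 5 to 22 when 1 liver was left out (22 without B6 replicate 1). In B6 there were 2 with equal covered length, 4 with exact matches and 0 at a CpG ratio below 0.6, and 11 to 39 when 1 liver was left out (39 without B6 replicate 2). Among the called promoters followed through the settings, MSM minus B6 reversed without joining for Arcn1 (-74 bp), Abcd4 (28 bp), Ggcx (-13.5 bp) and Prpf39 (-10 bp). For Ggcx it also reversed with equal numbers of peaks (-13.5 bp) and equal covered length (-13.5 bp). Among named promoters not called in a strain, the sign also changed without joining. This was so for C1rl (-466.5 to 149 bp), Cth (-147 to 32 bp), Nnt (-186.5 to 19.5 bp) and Bckdha (254.5 to -3.5 bp). The cause was not tested.
With the replicate number as a replicate block, MSM minus B6 for edges past the match was -3.84 points (paired exact sign-flip permutation p = 0.500, the smallest possible with 2 pairs).
Only copies that keep the probe stretch in the B6 sequence were found, and peaks too weak for a library's depth are not in its list.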
